A study of Solanum lycopersicum with 12 samples.

Results

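The probe sets described here are those whose signal moved with salt in the tomato genotype PI365967 and stayed near its unstressed level in Moneymaker. They were chosen by their measured values. On the log2 scale, the difference between the salt and unstressed group means had to be at least 0.8 in size in PI365967 and to lie between -0.3 and 0.3 in Moneymaker. Of 10101 probe sets, 70 met both conditions, 33 with a rise and 37 with a fall. They come from 68 transcript clusters, a cluster being the probe sets that share the number in their identifier, and 61 of the 70 carry no gene symbol in the annotation used.

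Moneymaker is a cultivated tomato, and PI365967 is known as a salt-tolerant accession of the wild tomato Solanum pimpinellifolium, although every sample is labelled Solanum lycopersicum. Plants of 4 weeks were moved from sand to aerated tanks of diluted Hoagland nutrient solution, and after 3 days, at 6 true leaves, they stood for 5 h in fresh solution with 0 or 200 mM NaCl. The 4 groups were unstressed Moneymaker, salt-treated Moneymaker, unstressed PI365967 and salt-treated PI365967, with 3 arrays each. RNA of whole plants, pooled from 3 plants per array, was hybridised to an Affymetrix tomato array, so the replicates are separate pools of plants. In whole plants, fewer cells of a type and less RNA per cell cannot be told apart.

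Salt in the root medium limits water uptake and lets sodium and chloride into the cells. Plants answer by pumping protons across the plasma membrane and the vacuole membrane, which drives sodium out of the cytoplasm, by gathering solutes such as proline, and by remodelling cell walls. Arginine lies at a branch of these pathways, since it can be turned into polyamines and into proline. The array carries short probes of fixed sequence, so a lower signal in one genotype can reflect fewer transcripts or a sequence that differs under the probes, and here these cannot be told apart. Within a genotype, the probes meet the same sequence in both treatments.

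Replicate arrays correlated at Pearson's r of 0.9909 to 0.9946 across probe sets. Replicates had a median SD of 0.107 to 0.129 in the 4 groups over all probe sets and of 0.148 to 0.23 over the 70 members. Of 8 leaf marker probe sets, 4 fell with salt in PI365967 and 7 in Moneymaker (limma, p under 0.05 after Benjamini-Hochberg adjustment across the array), and their summed log2 level ran from 16.26 to 16.29 in unstressed PI365967, 16 to 16.07 in salt-treated PI365967, 16 to 16.19 in unstressed Moneymaker and 15.51 to 15.62 in salt-treated Moneymaker. Of 8 root marker probe sets, 4 fell in PI365967, while in Moneymaker 2 rose and 5 fell, with sums of 14.13 to 14.2, 13.85 to 13.93, 14.29 to 14.36 and 14.07 to 14.1 in the same order. Over all probe sets, 23.3% were called higher and 24% lower in PI365967, and 26% and 31% in Moneymaker. No marker was a member, and the root marker NRAMP1 was dim, with a mean log2 level of 5.81. The root sums follow their brightest markers, PT1 and TPx1, with means of 12.7 and 12.5. Moneymaker differences of -3.08 for PT2, -2.96 for TPX2 and -2.04 for AMT1-2 hardly show in them. The markers' part in the results was not tested. Array medians ran from 332.8 to 633.2 in intensity, and the values below are log2(intensity + 16) after quantile normalization.

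The members' salt changes are a description, since they made the choice. In PI365967 the 33 rises had a median of 1.02 and ran from 0.83 to 1.66, and the 37 falls had a median of -0.98 and ran from -1.91 to -0.80. In Moneymaker the same probe sets had medians of 0.08 and -0.05. Over all probe sets the medians were 0.00 in PI365967 and -0.05 in Moneymaker. Moneymaker's small difference had the sign of the PI365967 change in 21 of the rises and 21 of the falls. Over the whole array the signs matched in 7994 of 10101 probe sets. All 33 rises and 35 of the 37 falls were called in PI365967, where 23.3% of all probe sets were called higher and 24% lower (47.3% in all), and nothing is read from this count. The 2 falls that were not called were Les.804.1.S1_at and Les.3070.2.A1_at, whose standard errors were 0.44 and 0.42. These standard errors pool the spread of all 4 groups, Moneymaker included. Les.804.1.S1_at had SDs of 0.203 and 0.648 in unstressed and salt-treated PI365967 and 1.033 and 0.237 in Moneymaker. For Les.3070.2.A1_at they were 0.331 and 0.133 in PI365967 and 0.917 and 0.706 in Moneymaker.

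**Figure D1:**
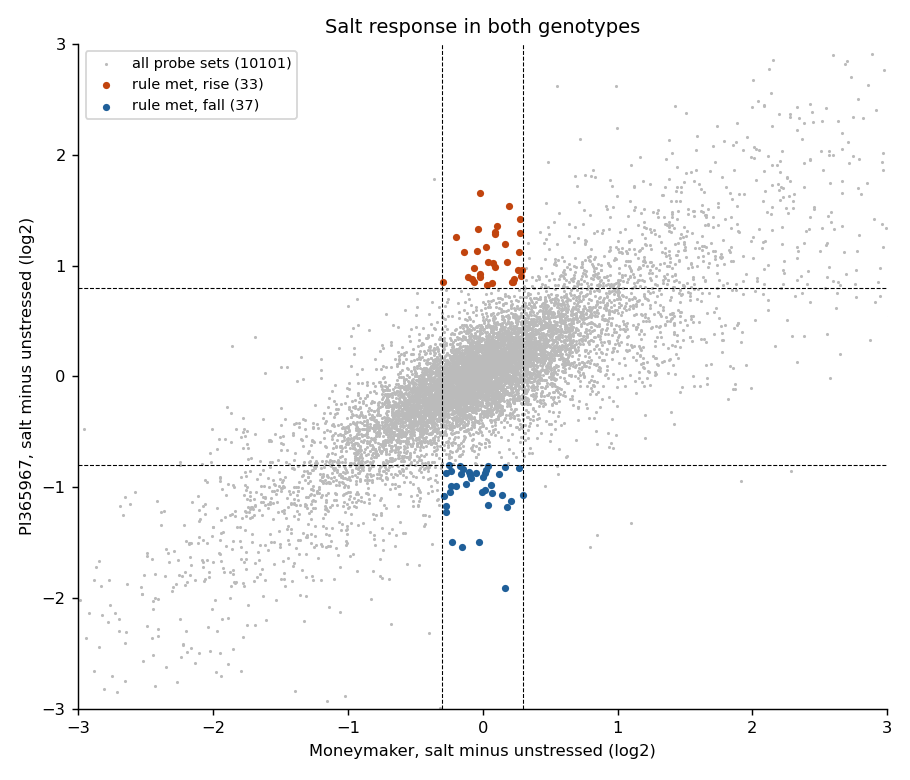
Each point is a probe set, with the log2 difference between salt and unstressed means in Moneymaker on the x axis and in PI365967 on the y axis, and dashed lines mark 0.8 and 0.3. The 33 rises and 37 falls fill 2 windows above and below a cloud that runs along the diagonal, and 94 of the 10101 probe sets lie beyond the axes.

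None of the 70 was called in Moneymaker, where 57% of all probe sets were called, and 43.5% of all probe sets lay within 0.3. A missing call does not show that a probe set stayed level in Moneymaker. The 95% interval of the Moneymaker difference reached beyond 0.3 in size for 66 of the 70. It stayed within 0.8 for 64 and reached past it for 6, which were CEVI57, ARG2, Les.5617.1.S1_at, Les.804.1.S1_at, LesAffx.10091.1.S1_at and Les.3070.2.A1_at. Each interval rests on a spread pooled over the 4 groups, not on Moneymaker alone. The SDs of unstressed and salt-treated Moneymaker were 0.144 and 0.076 for CEVI57, beside 0.101 and 0.759 in PI365967. For Les.5617.1.S1_at they were 0.069 and 0.132, beside 0.774 and 0.483. The difference of the salt effects was called for 20 rises and 21 falls, beside 13.2% of all probe sets (6.15% with a higher and 7.09% with a lower value in PI365967), a count that the choice also shaped. In PI365967 the 3 salt arrays did not overlap the 3 unstressed arrays in 31 rises and all 37 falls, beside 56.4% of all probe sets (27.4% higher and 29% lower). The 2 rises with overlap were Les.5617.1.S1_at and LesAffx.49488.1.S1_at. In Moneymaker the arrays did not overlap in 3 members, CEVI57, Les.4149.2.S1_a_at and Les.1338.1.A1_at, beside 63.9% of all probe sets.

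Among proton pumps and ion carriers, the member was LHA1 (Les.3671.1.S1_at), a plasma membrane H+-ATPase that pumps protons out of the cell and so powers other carriers. Its log2 level was 10.81, 10.83 and 10.82 in unstressed PI365967 and 12.26, 12.17 and 11.94 under salt. In Moneymaker it was 10.68, 10.73 and 10.64 without and 10.75, 10.90 and 10.66 with salt. Every salt-treated PI365967 array lay above all others, which ran from 10.64 to 10.90. The salt difference was 1.30 ± 0.09 (SE, n = 3 arrays per group), or 2.47-fold, in PI365967 and 0.09 ± 0.09 in Moneymaker, with a 95% interval of -0.11 to 0.29.

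LHA2, another H+-ATPase of the same family, was called higher in neither genotype. It differed by -0.10 ± 0.07 in PI365967 (limma, adjusted p = 0.257) and fell by 0.51 in Moneymaker (adjusted p = 5.26e-05). Of the 6 probe sets of ion transport, 3 were called higher and 1 lower in PI365967, and likewise in Moneymaker, with median differences of 0.18 and 0.25. The shares of all probe sets were 23.3% higher and 24% lower in PI365967 and 26% and 31% in Moneymaker. NHX1, a Na+/H+ exchanger of the vacuole, rose in both genotypes, by 1.38 in PI365967 and 1.67 in Moneymaker. LKT1, a potassium channel, fell by 0.50 in PI365967 and rose by 0.84 in Moneymaker. SOS2, a kinase that activates sodium export in Arabidopsis, rose by 0.22 in PI365967 (adjusted p = 0.0473) and differed by 0.11 in Moneymaker (adjusted p = 0.305). The difference of its salt effects was not called (adjusted p = 0.566).

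Among genes for solutes, the member was ProT2 (Les.59.1.S1_at), a proline transporter. Its level was 7.68, 7.82 and 7.37 in unstressed PI365967 and 8.65, 8.60 and 8.09 under salt. In Moneymaker it stood at 8.68, 8.81 and 8.67 without and 8.88, 8.75 and 8.63 with salt. Unstressed PI365967 was the lowest group on every array, and 1 of the salt-treated arrays, at 8.65, reached the lower edge of the Moneymaker range, at 8.63. The salt differences were 0.83 ± 0.15 in PI365967 and 0.03 ± 0.15 in Moneymaker, so ProT2 was the rise closest to the threshold. Its relative ProT1 rose in both genotypes, by 0.91 and 0.82, and ProT3 differed by -0.09 and 0.19 (adjusted p = 0.649 and 0.334). Of 14 solute probe sets, 4 were called higher and 2 lower in PI365967 and 4 higher and 3 lower in Moneymaker, with medians of 0.11 and 0.03. The shares of all probe sets were 23.3% higher and 24% lower in PI365967 and 26% and 31% in Moneymaker.

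Among genes of the cell wall, the member was Cel1 (Les.3667.1.S1_at), an endo-1,4-beta-glucanase of the enzymes that loosen and dissolve walls. Its level was 6.79, 6.67 and 6.42 in unstressed PI365967 and 7.90, 7.40 and 7.31 under salt. In Moneymaker it was 7.24, 7.01 and 7.45 without and 7.87, 6.98 and 7.70 with salt. The 3 unstressed PI365967 arrays were the lowest of the 12, and the Moneymaker salt arrays spread widely. The salt difference was 0.90 ± 0.23 in PI365967 and 0.29 ± 0.23 in Moneymaker, near the limit of 0.3, and the difference between them was not called. Leaving out 1 array at a time moved the Moneymaker value from 0.11, without replicate 1 of the salt group, to 0.55, without replicate 2 of it.

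In PI365967 Cel1 moved against the other genes of its family on the array. Cel2, Cel3, cel5, cel7, CEL8 and CELLULASE all fell in both genotypes, from -0.22 for Cel3 to -2.30 for cel7 in PI365967. Of 44 cell wall probe sets, 6 were called higher and 23 lower in PI365967 and 5 higher and 30 lower in Moneymaker. Their medians were -0.37 and -0.86, and Cel1 was 1 of the 6 that rose in PI365967. The shares of all probe sets were 23.3% higher and 24% lower in PI365967 and 26% and 31% in Moneymaker.

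CEVI57 (Les.4022.1.S1_at), named for its induction by citrus exocortis viroid in tomato, had the widest gap between the genotypes of all 70. Its level was 5.49, 5.52 and 5.68 in unstressed PI365967 and 6.80, 6.55 and 7.97 under salt. In Moneymaker it was 10.87, 10.83 and 10.60 without and 11.05, 10.93 and 10.90 with salt. One salt-treated array of PI365967 lay more than 1 above the other two, and even that array was far below every Moneymaker array. The salt differences were 1.54 ± 0.28 and 0.19 ± 0.28. CEVI-1 and cevi19, other genes named for the same viroid, fell in both genotypes, with -1.07 and -1.72 in PI365967. These 3 viroid-induced genes were placed by symbol in the list of root and nutrient uptake genes, and no such role is given for them here. That list has 11 probe sets, of which 1 was called higher and 6 lower in PI365967 and 2 higher and 7 lower in Moneymaker, with medians of -0.47 and -1.03. The shares of all probe sets were 23.3% higher and 24% lower in PI365967 and 26% and 31% in Moneymaker.

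Among the falls, SPE4 (Les.4473.1.S1_at) carries the symbol that Saccharomyces cerevisiae uses for spermine synthase, the last step from spermidine to the polyamine spermine. Its level was 8.86, 8.72 and 8.54 in unstressed PI365967 and 7.10, 7.11 and 7.43 under salt. In Moneymaker it was 8.39, 8.43 and 8.11 without and 8.28, 8.50 and 8.06 with salt. The 3 salt-treated PI365967 arrays lay below the other 9. The salt difference was -1.49 ± 0.14, a 2.81-fold fall, against -0.03 ± 0.14 in Moneymaker, whose 95% interval ran from -0.34 to 0.28.

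ARG2 (LesAffx.1.1.S1_at) encodes arginase, which splits arginine into ornithine and urea. Its level was 10.30, 10.17 and 10.83 in unstressed PI365967 and 9.31, 9.08 and 9.24 under salt. In Moneymaker it was 8.60, 9.21 and 9.97 without and 8.94, 8.54 and 9.50 with salt. The PI365967 groups did not overlap, whereas the unstressed Moneymaker arrays alone ran from 8.60 to 9.97. The salt difference was -1.22 ± 0.32 in PI365967 and -0.27 ± 0.32 in Moneymaker, with a 95% interval of -0.98 to 0.44 that holds changes as large as the threshold. Without replicate 1 of unstressed Moneymaker its value there was -0.60, and without replicate 3 it was 0.085.

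Another ARG2 probe set, Les.3299.2.A1_s_at, fell by 1.08 in PI365967 (adjusted p = 0.0104) and differed by -0.53 in Moneymaker (adjusted p = 0.148), and its identifier marks it as open to related transcripts. The remaining one, Les.3299.1.S1_at, was dim, with a mean of 5.07, and was called in neither genotype. The related arginase gene ARG1 rose in both genotypes, by 1.10 and 1.38. Around the same branch point, the 4 probe sets of adc1 and that of ADC, symbols used for arginine decarboxylase, rose in both genotypes, while that of ODC, the symbol of ornithine decarboxylase, was called in neither. The adc1 probe sets rose by 0.96 to 1.59 in PI365967 and by 1.24 to 1.46 in Moneymaker.

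**Figure D2:**
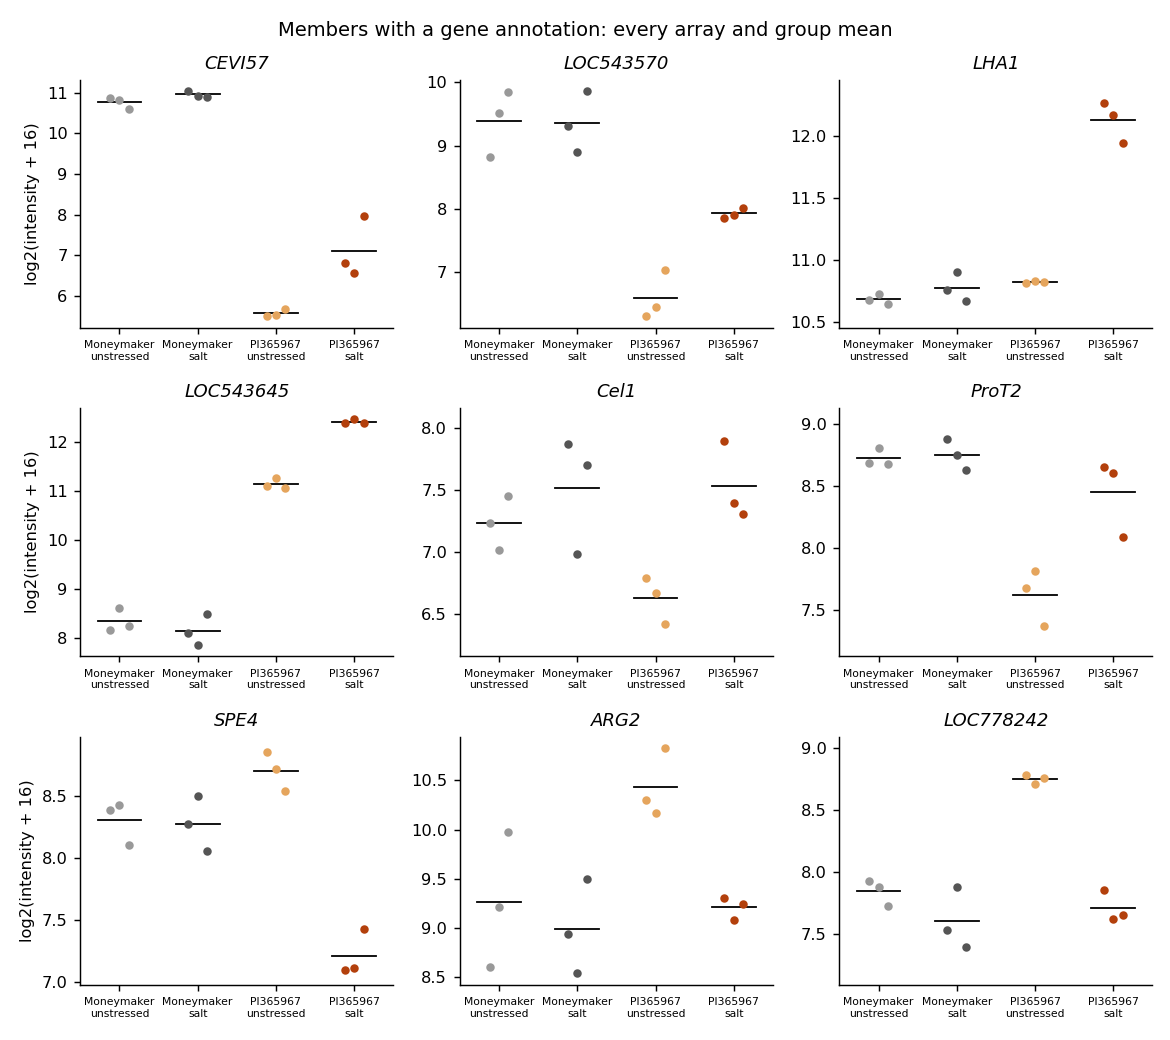
Each panel shows 1 annotated member, with log2(intensity + 16) on the y axis (scales differ), 3 arrays per group as points and the group mean as a bar. In LHA1 the salt-treated PI365967 arrays lie above all others and in SPE4 below all others, while CEVI57, LOC543570 and LOC543645 differ between genotypes in every array.

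Another 3 members carry only a locus number, and no role is given for them here. LOC543570 (Les.4820.1.S1_x_at, an identifier that marks possible cross-hybridisation) was at 6.31, 6.45 and 7.04 in unstressed PI365967 and 7.87, 7.91 and 8.01 under salt, against 8.82 to 9.86 on the Moneymaker arrays of either treatment. LOC543645 (Les.217.1.S1_at) was at 11.11, 11.26 and 11.07 without and 12.38, 12.46 and 12.38 with salt in PI365967, against 7.87 to 8.61 in Moneymaker. So one was below and the other above Moneymaker on all arrays. LOC778242 (Les.5655.1.S1_at) was at 8.78, 8.71 and 8.76 without and 7.86, 7.62 and 7.65 with salt in PI365967, against 7.40 to 7.93 in Moneymaker, so that salt brought it into the Moneymaker range.

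Among members with no gene symbol, the largest rises in PI365967 were Les.2461.1.S1_at and Les.4149.2.S1_a_at. The first went from 8.50, 8.50 and 8.16 to 10.32, 10.03 and 9.80 with salt, while Moneymaker ran from 7.31 to 8.11 over both treatments. The second went from 9.67, 9.68 and 9.40 to 11.12, 10.95 and 10.95. In Moneymaker its 3 salt arrays, at 9.10, 9.06 and 9.15, also lay above the unstressed 8.64, 8.78 and 9.05, by a mean of 0.28.

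The largest falls were Les.4397.2.A1_at and Les.2529.1.A1_at. Les.4397.2.A1_at went from 9.95, 10.23 and 10.42 to 8.38, 8.17 and 8.32 with salt, a difference of -1.91 ± 0.20, while Moneymaker ran from 9.91 to 10.74 over both treatments. Les.2529.1.A1_at went from 11.41, 11.32 and 11.17 to 9.82, 9.81 and 9.66, a difference of -1.54 ± 0.17, while Moneymaker ran from 10.58 to 11.42. Another probe set of its cluster, Les.2529.2.S1_at, is a member too, with -0.91 ± 0.24 in PI365967 and 0.00 ± 0.24 in Moneymaker.

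The mean difference between the genotypes, taken over both treatments, is not a value that chose the members, and in a balanced design its error is independent of theirs. The salt change in PI365967 still enters this mean, so members with equal unstressed levels would differ in it through the choice alone. Low signal can also tie the mean difference to the choice, since a probe set at the floor in Moneymaker can show no fall there. By this contrast 14 of the 33 rises were higher in PI365967, 8 were lower and 11 were not called. Of the 37 falls, 15 were higher, 15 lower and 7 not called. In all, 52 of 70 were called, beside 54.4% of all probe sets, of which 29.3% were higher and 25.1% lower. Thus neither direction of salt change came with one direction of genotype difference.

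The genotype differences of the members were wide. Their median size was 0.61, against 0.24 over all probe sets, and 22 of 70 (31.4%) reached 1 in size, against 6.76% of all probe sets. At least 2 was reached by 9 members (12.9%), against 1.53% of all. The 22 split evenly, 11 higher and 11 lower in PI365967, beside 2.81% and 3.95% of all probe sets. Among the 1458 probe sets with a change of at least 0.8 in PI365967 that also moved beyond 0.3 in Moneymaker, 12.5% differed by 1 or more between genotypes. Among the 209 that met the mirrored rule, changed in Moneymaker and near level in PI365967, the share was 20.6%. These 209 had a median size of 0.50, and 72.7% of them were called by the genotype contrast. In an alternative added after the data were seen, only probe sets with all 4 group means at 7.14 or more were counted, 7.14 being the limit of the dimmest 25% of the array. Of the 43 members left, 13 (30.2%) differed by 1 or more and 3 (6.98%) by 2 or more, against 4.79% and 0.505% of all probe sets that passed. These sizes and shares are descriptions that the choice also shaped, and the gaps between them were not tested.

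Named members lay at both ends. LOC543645 was 3.52 ± 0.11 higher in PI365967 (limma, adjusted p = 3.68e-10), and CEVI57 was 4.53 lower (-4.53 ± 0.20, adjusted p = 1.01e-08). LOC543570 was lower by 2.11 (-2.11 ± 0.20, adjusted p = 6.06e-06). LHA1, LOC778242 and ARG2 were higher in PI365967, by 0.75 ± 0.06 (adjusted p = 2.51e-06), 0.51 ± 0.08 (adjusted p = 3.35e-04) and 0.70 ± 0.23 (adjusted p = 0.0228). The ARG2 call was lost without 1 array, either replicate 3 of unstressed PI365967 (0.60, adjusted p = 0.0551) or replicate 2 of salt-treated Moneymaker (0.58, adjusted p = 0.0556). Of the other ARG2 probe sets, Les.3299.2.A1_s_at was 0.57 higher in PI365967 (adjusted p = 0.0373). Les.3299.1.S1_at, dim at a mean of 5.07, was lower, with -1.03 (adjusted p = 7.34e-04), so the ARG2 probe sets differed in direction. ProT2 and SPE4 were lower, by 0.70 ± 0.11 (adjusted p = 2.24e-04) and 0.33 ± 0.10 (adjusted p = 0.0145). Cel1 differed by -0.30 ± 0.16, which was not called (adjusted p = 0.145), but it was called without replicate 2 of salt-treated Moneymaker (-0.43, adjusted p = 0.0164).

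**Figure D3:**
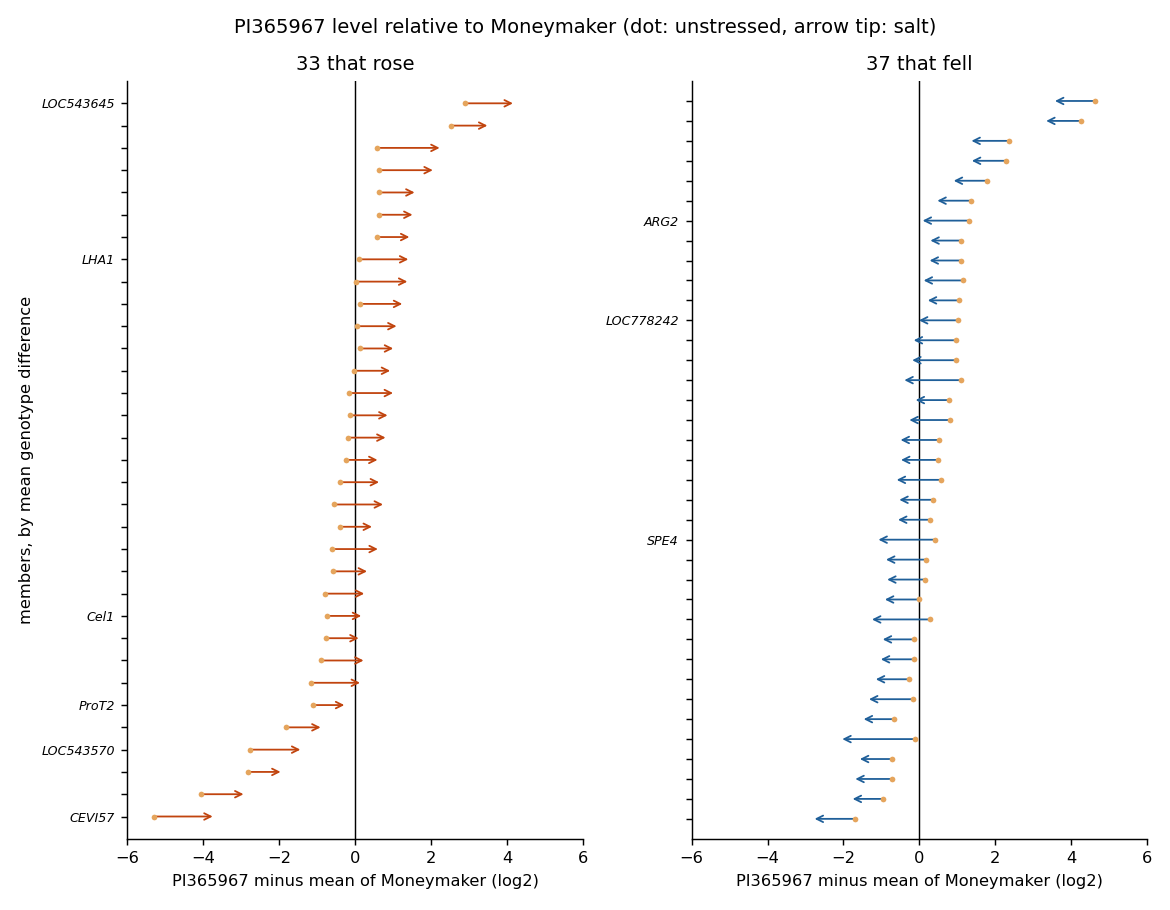
Each arrow is 1 member, running from the unstressed mean (dot) to the salt mean (tip) of PI365967, on an x axis of log2 difference from the mean of both Moneymaker groups, sorted by the mean genotype difference. Arrows lie on both sides of 0, and several start and end far from it, such as CEVI57 on the left and LOC543645 on the right.

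In unstressed plants PI365967 lay below Moneymaker in 20 of the 33 rises, and under salt it lay above in 26. The gap between the genotypes was narrower under salt than without it in 13 rises and 19 falls and wider in the rest. ProT2, Cel1, LOC543570 and CEVI57 were rises that narrowed it, from -1.10 to -0.30, from -0.60 to 0.01, from -2.80 to -1.43 and from -5.20 to -3.85. LOC778242 and ARG2 were falls that narrowed it, from 0.91 to 0.11 and from 1.17 to 0.22. LHA1 and SPE4 opened a gap, from 0.14 to 1.35 and from 0.40 to -1.06. These differences share arrays with the choice and carry no test.

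Other large genotype gaps, picked out after their values were seen, belonged to members with no gene symbol. LesAffx.66316.1.S1_at, a fall, had log2 levels of 8.94, 9.13 and 8.73 in unstressed PI365967, 7.76, 7.86 and 8.04 under salt, and 4.04 to 4.54 on the 6 Moneymaker arrays. Its Moneymaker intensities were 0.4 to 9.1, below the added 16, so no fall could have been seen there. Les.5240.1.S1_at, a rise, stood the other way, at 5.38, 6.02 and 5.54 without and 6.90, 6.62 and 6.78 with salt in PI365967 and at 9.58 to 9.82 in Moneymaker. LesAffx.25244.2.S1_at, a fall, was at 11.72 to 12.09 without and 10.45 to 11.32 with salt in PI365967, against 7.21 to 8.05 in Moneymaker.

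The median level of the members was 8.45, against 8.78 over all probe sets, and 19 of 70 (27.1%) lay under 7.14. Both Moneymaker group means were under that limit in 10 rises and 9 falls, against 2263 of all 10101 probe sets. Unstressed PI365967 lay under the limit in 13 rises and 5 falls, against 2575 of all probe sets. Most of these rises were also under it in both Moneymaker groups. Identifiers that mark possible cross-hybridisation or shared transcripts were found in 2 members, or 2.86%, beside 2.74% of all probe sets.

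Other probe sets of the same cluster or gene were read beside the members. Some identifiers hold A1 where others hold S1, and whether such pairs read the same strand was not tested. Other probe sets exist for 25 members and comprise 29 probe sets that are not members themselves, which form 30 pairs with members. In PI365967, 18 of the 30 pairs had the other probe set called in the member's direction, 11 were not called and 1 was called the opposite way. That was LesAffx.69324.2.S1_at, dim at a mean of 4.71, with -0.67 ± 0.21 beside a rise of 0.96. Of the 18, 7 were called the same way in Moneymaker too. For comparison, 23.3% of all probe sets were called higher and 24% lower in PI365967, and 26% and 31% in Moneymaker. The pairs are not independent, since some of them share a cluster or a probe set, and their counts were not tested against these shares.

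In some clusters the other probe sets moved in both genotypes. Les.3752.1.A1_at rose by 0.98 in PI365967 and differed by -0.06 in Moneymaker, while Les.3752.1.S1_at of the same cluster rose by 6.69 and 5.60. Beside LesAffx.51285.1.A1_at, with 1.36 and 0.11, LesAffx.51285.1.S1_at rose by 2.38 and 1.51. Of the 4 other probe sets of the cluster of LesAffx.869.2.S1_at, 3 rose by 1.37 to 1.51 in PI365967 and 1.15 to 1.26 in Moneymaker, and LesAffx.869.2.A1_at, dim at a mean of 4.12, was called in neither. In these clusters the Moneymaker value near 0 was thus not shared by every probe set.

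In most of the 30 pairs the difference of the salt effects was not called for the other probe set, and 13.2% of all probe sets were called. For Les.3068.2.S1_at it was called against the direction of the member (limma, adjusted p = 0.0128). The clusters named next were picked because it was called in the member's direction. Les.4397.1.S1_at fell by 0.81 in PI365967 and rose by 0.55 in Moneymaker, and the difference of its salt effects was called (adjusted p = 0.00709), as for Les.4149.3.S1_at (0.64 and -0.28, adjusted p = 0.0155). Les.2090.1.S1_at and Les.2090.3.A1_at fell by 0.65 and 0.64 in PI365967 and differed by -0.03 and -0.08 in Moneymaker, with adjusted p of 0.0291 and 0.0232 for the difference. LesAffx.25244.1.S1_at showed the genotype gap of its cluster, 3.26 higher in PI365967 (adjusted p = 1.41e-08). Les.4397.1.S1_at likewise had a genotype difference of -3.17 (adjusted p = 7.34e-09), beside -1.08 for the member.

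To read the same measure in arrays that made no choice, the rule was applied to 8 arrays and the chosen probe sets were read in the other 4, those of 1 replicate number. Each choice gave 41 to 50 rises and 40 to 59 falls. In the left-out arrays of PI365967 the rises had medians of 0.69, 0.68 and 0.84, against 0.95 to 0.97 in the arrays that chose them. The falls had medians of -0.78, -0.88 and -0.72, against -0.93 to -0.97. The sign held in 40 of 46, 46 of 50 and 35 of 41 rises and in 42 of 44, 38 of 40 and 48 of 59 falls.

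A change of at least 0.8 recurred in 44% to 53.7% of the chosen rises, where 7.93% to 9.3% of all probe sets reached it, and in 44.1% to 57.5% of the falls, where 8.19% to 9.11% did. The Moneymaker condition recurred in shares nearer to those of all probe sets. The left-out Moneymaker difference lay within 0.3 for 45.7%, 60% and 63.4% of the rises and 38.6%, 55% and 44.1% of the falls, beside 38.8%, 42.4% and 39.6% of all probe sets. Its median was positive for the rises, 0.13 to 0.20, and negative for the falls, -0.21 to -0.11. Both conditions together recurred in 12 of 46, 12 of 50 and 12 of 41 rises and in 6 of 44, 12 of 40 and 8 of 59 falls. All arrays were normalized together.

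**Figure D4:**
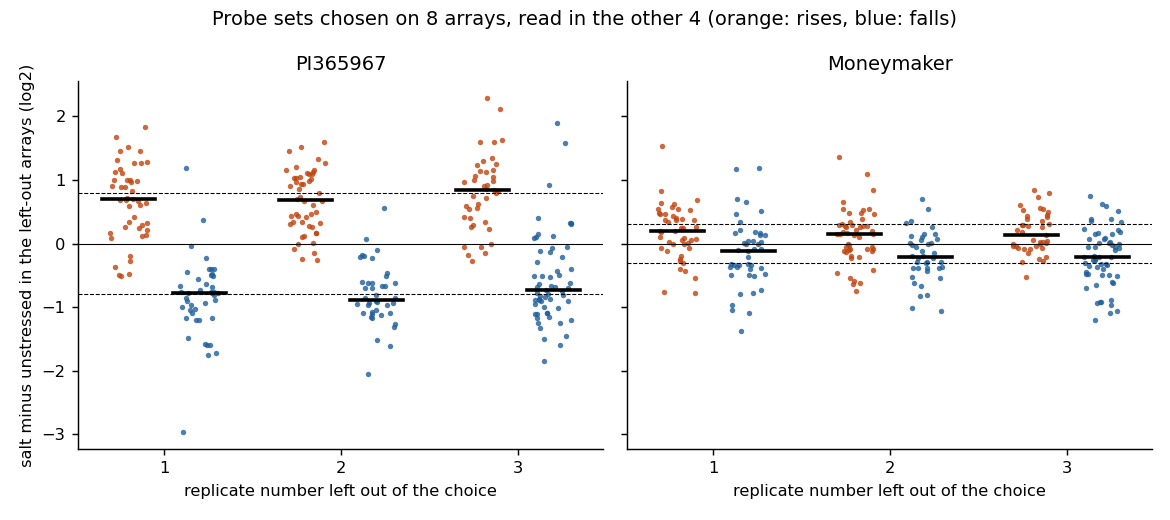
Points are probe sets chosen on 8 arrays, with the log2 salt difference in the 4 arrays left out on the y axis, for PI365967 (left) and Moneymaker (right), and bars are medians. In PI365967 the rises keep medians of 0.68 to 0.84 and the falls of -0.88 to -0.72, while many Moneymaker points lie beyond the dashed lines at 0.3.

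The authors' deposited second set of log2 values, for the same arrays, held 58 of the 70 members. It is no new experiment, and which steps set it apart from the intensity values is not known here. The PI365967 change had the same sign in 58 of 58 and reached 0.8 in 44. The Moneymaker difference lay within 0.3 in 45. Both conditions were met by 16 rises and 17 falls, and LHA1, ProT2, LOC543570, SPE4 and ARG2 were among them. CEVI57 (1.45 and 0.37), LOC543645 (1.32 and -0.303), Cel1 (0.799 and 0.08) and LOC778242 (-0.92 and -0.47) missed one condition. Les.3068.3.A1_at was the only member whose Moneymaker difference passed 0.8 in these values, at -1.15. Its PI365967 change there was -0.37, beside -1.02 in the intensity values, so the larger fall was in Moneymaker. In the intensity values 2 other probe sets of its cluster, Les.3068.1.S1_at and Les.3068.2.S1_at, fell in Moneymaker by 1.02 and 1.09. They differed by -0.61 and -0.29 in PI365967.

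**Figure D5:**
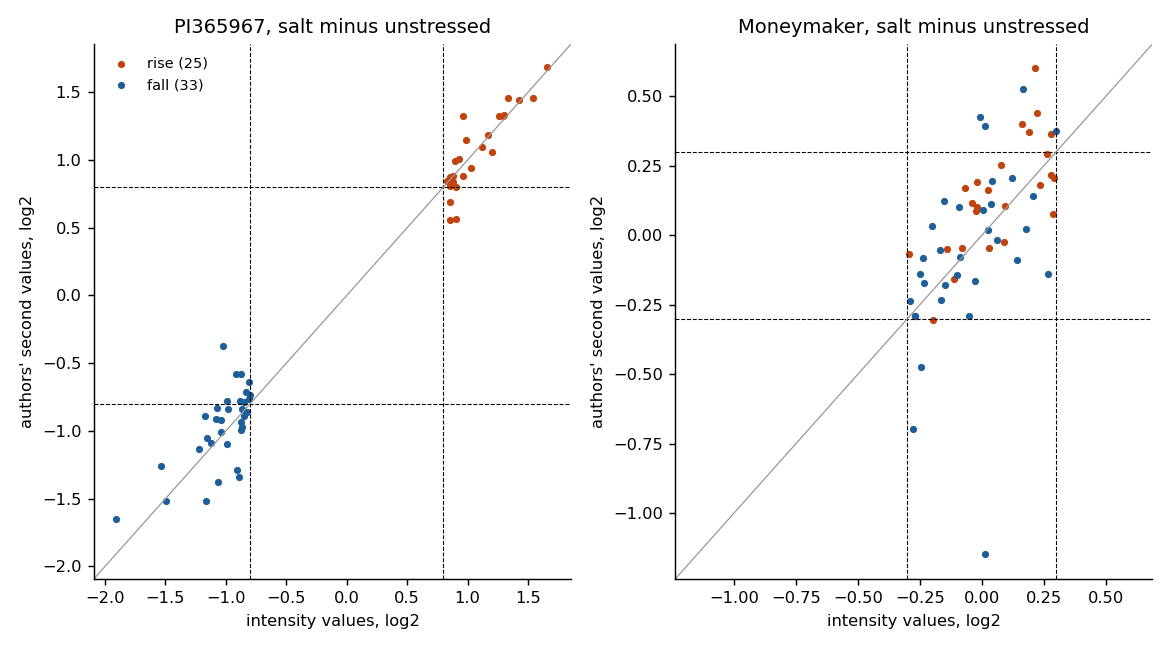
For the 58 members present in both sets, the log2 salt difference in the intensity values (x axis) is set against that in the authors' second values (y axis), with PI365967 on the left, Moneymaker on the right, dashed lines at the limits of the rule and a line of equality. All PI365967 points keep their sign, and 1 Moneymaker point lies at -1.15.

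Choices of processing moved many members across the limits. Without any one of the 12 arrays, 12 rises and 9 falls met the rule every time. Under median centring and with offsets of 1 and 64 in place of 16, 17 rises and 17 falls met it every time. Under all of these and in the second values, 7 rises and 5 falls did, among them LHA1, SPE4, Les.2461.1.S1_at and both Les.2529.1.A1_at and Les.2529.2.S1_at.

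Members near the limits differ little from probe sets just past them. In PI365967 the smallest rises were ProT2 at 0.83, LesAffx.869.2.S1_at at 0.84 and LesAffx.66767.1.S1_at at 0.85, and LOC543883 at 0.80, Les.1510.2.A1_at at 0.78 and Les.4997.1.S1_at at 0.78 fell just short. The smallest falls were Les.5629.1.S1_at at -0.80, Les.4946.1.S1_at at -0.81 and Les.2964.2.S1_at at -0.81, and LesAffx.42569.1.S1_at at -0.80, Les.410.1.A1_at at -0.80 and Les.2092.2.S1_at at -0.79 missed. On the Moneymaker limit, Les.3747.1.S1_at (-0.29), LesAffx.69324.1.S1_at (0.29) and Cel1 (0.29) were the last rises inside and Les.1888.1.A1_at (0.30), Les.1967.1.A1_at (0.32) and Les.5408.1.S1_at (0.32) the first outside. Among falls these were LesAffx.69732.1.S1_at (0.30), LesAffx.71166.1.S1_at (-0.29) and LesAffx.23465.1.S1_at (-0.28) inside and LesAffx.44022.1.S1_at (-0.31), Les.28.2.S1_a_at (-0.32) and LesAffx.41988.1.S1_at (-0.33) outside. Les.28.2.S1_a_at, kept out by a margin of the second decimal, fell by 3.00 in PI365967.

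Few members could be placed in a pathway. Of 285 probe sets in 22 gene lists, 4 (1.4%) were members, beside 0.693% of all probe sets. The lists were made from gene symbols, so only the 909 probe sets with a symbol could enter, and 9 of those were members. SPE4 was in no list, since its symbol was not among those used for polyamine genes. In 18 lists no probe set was a member. The 5 probe sets of water stress genes, for example, were all called higher in both genotypes, with medians of 1.08 in PI365967 and 1.60 in Moneymaker. Over all probe sets, 23.3% were called higher in PI365967 and 26% in Moneymaker. The 6 polyamine probe sets stand for 3 genes, and most of them are of adc1. Of the 6, 5 were called higher in each genotype, with medians of 1.00 and 1.31.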

How the data were processed

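Each probe set and array had 1 linear intensity in the values the authors deposited; their background correction and probe summary were not given in the sources used here. The authors' deposited second log2 values cover part of the probe sets, by a method likewise not given. Here, 108 control probe sets were left out and log2(intensity + 16) was quantile normalized over 12 arrays. limma 3.58.1 (R 4.3.3; lmFit, eBayes) fitted 4 group means with 8 residual degrees of freedom and no covariates, two-sided, with Benjamini-Hochberg adjustment over 10101 probe sets and calls under 0.05. Values after ± are standard errors, taken from a spread per probe set that the 4 groups share. The 3 arrays per group limit the precision (median standard error 0.114 for a salt effect, 0.08 for the genotype mean). On simulated data, 76% and 97% of 100 genotype differences of 0.5 and 1 were recovered, with 6.49% false calls. Each size was given to 100 probe sets, whereas 54.4% of all probe sets were called in the data. The simulated rates may therefore not carry over to this contrast. The platform annotation gave 909 probe sets a symbol, 885 of them matched in RefSeq. The members and gene lists were chosen with earlier results of these data known. Named are all members with a symbol, the 2 largest rises and falls without one, the 3 nearest each threshold on both sides, relatives from the lists or clusters, and a few members chosen after their values were seen, as exceptions to a count or for a wide genotype gap. Replicate numbers were not taken to pair the arrays: the correlation of deviations was -0.132 to 0.162, over 0.1 in 4 of 18 pairs, but 3 of these were the pairs of unstressed arrays of both genotypes (0.116 to 0.162). Alternatives were other scalings, offsets, filters and limits, each array left out, a replicate block and the second values.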

Additional observations from a re-analysis of the deposited data

Results flagged for a closer look

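In 8 probe sets outside the rule that were named beside a member, the salt effects of the genotypes differed by the test of the difference itself (limma, adjusted p under 0.05, PI365967 minus Moneymaker). LKT1 differed by -1.33 and LHA2 by 0.42, as relatives of LHA1 in ion transport. The viroid-induced gene cevi19 differed by 1.15, with the larger fall in Moneymaker. Les.4397.1.S1_at differed by -1.37, Les.4149.3.S1_at by 0.92, and Les.2090.1.S1_at and Les.2090.3.A1_at by -0.62 and -0.56, each in the direction of the member of its cluster. Les.3068.2.S1_at differed by 0.8, against the direction of the member of its cluster. Among control probe sets, which no comparison used, that of 25S ribosomal RNA was 1.86 higher in log2 with salt in Moneymaker and 0.66 higher in PI365967. Its part in the members' values was not tested.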

How the results depend on the processing

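The number of members depended most on scaling and offset. Without normalization between arrays, 73 rises (24 of the 33 among them) and 15 falls (13 of the 37) met the rule, and the genotype mean was called higher for 960 of all probe sets, the salt effect for 1983 in PI365967 and 3534 in Moneymaker, and their difference for 292. An offset of 1 gave 83 rises and 92 falls (29 and 35 shared), and an offset of 64 gave 23 rises and 24 falls (20 and 18 shared). A threshold of 1 in PI365967 left 17 and 16. Without the dimmest 25% of probe sets, 9 falls were higher in PI365967. In left-out arrays the medians moved to 0.694 and 0.685 for rises and -0.782 and -0.724 for falls. Median centring (25 and 46), a Moneymaker limit of 0.2 (23 and 25) and the second values (27 and 29) stayed within 1.5 times. Leaving out each array gave 29 to 43 rises and 35 to 47 falls. The genotype mean then called 14 to 15 rises higher and 7 to 9 lower, and 13 to 16 falls in each direction. Of all probe sets, it then called 2759 to 2915 higher and 2364 to 2522 lower, with 4159 to 4822 salt effects in PI365967, 5268 to 5870 in Moneymaker and 925 to 1367 differences. The replicate block changed the genotype count of falls called higher from 15 to 16 and left the other 3 genotype counts of the members as they were, and called 1199 differences of salt effects. LOC778242 lost its genotype call without normalization (0.364, adjusted p = 0.136). No called value changed sign, but Moneymaker differences of named members, none of them called, did in places, as for ARG2 (0.085 without unstressed replicate 3) and, without normalization, LHA1 (-0.108), Cel1 (-0.06) and ProT2 (-0.231). LOC543570 and SPE4 did so too. Promoter motifs, listed as an analysis, were not run, since no promoter sequence was used here.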
